A study of Arabidopsis thaliana with 14 samples.

Results

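The transcripts described here are those of the plastid genome, the small circular genome of the chloroplast, measured in Arabidopsis rosettes as a night was extended. A gene was included when the array annotation tied a probe set to exactly 1 gene of the plastid genome, and where several such probe sets existed the brightest would have been taken. This gave 69 genes, each with 1 probe set, of 13356 genes measured by a probe set naming 1 gene. The plastid annotation lists 78 protein-coding symbols. The 9 symbols not used here include those whose probe sets name more than 1 gene entry. By symbol, the 69 genes comprised 43 of photosynthesis (15 psb, 10 ndh, 6 pet, 6 atp, 5 psa and rbcL), 19 of gene expression (8 rps, 7 rpl and 4 rpo) and 7 others (accD, ccsA, cemA, clpP, matK, ycf3 and ycf4).

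Whole rosettes of the Columbia-0 accession, 5 to 6 weeks old and last kept in a 14 h photoperiod, were pooled by 3 for each sample and hybridised to the Affymetrix ATH1 array. All groups shared this genotype and growth regime and differed in the time of harvest. The series had 1 array 2 h ahead of the end of the night (the -2 h array), 3 at the end of the night (letters A, B and C), 1 at 2 h into the extended night, 2 at 4 h (A and B), 1 at 6 h, 2 at 8 h (A and B), 2 at 24 h (B and C) and 2 at 48 h (B and C). The labels do not say what the letters mark, and p-values measure only the spread between these samples. A rosette also holds petioles, veins and epidermis. In whole rosettes, fewer plastids or cells and less RNA per plastid cannot be told apart. Only 2 of 16 tissue markers looked for had a probe set used here. RCA, the Rubisco activase of green leaf cells, was between 9.85 and 14.03 log2 units on the 14 arrays, and the root hair expansin EXP7 was between 5.71 and 6.32.

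Chloroplasts keep genes for core subunits of both photosystems, the cytochrome b6f complex, the ATP synthase, the NDH complex that cycles electrons around photosystem I, and the large subunit of Rubisco, and they keep part of the machinery that transcribes and translates them. A bacterial-type RNA polymerase, whose core is encoded by rpoA, rpoB, rpoC1 and rpoC2, works beside phage-type polymerases made by nuclear genes, and nuclear sigma factors direct the bacterial-type enzyme to promoters. Many plastid genes are transcribed together in polycistronic units that are then cut, edited and trimmed, so a probe set reads every RNA that contains its target, precursors included.

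Values are log2 signals after the authors' normalization, and a difference of 1 is a factor of 2. A gene was called when limma's adjusted p, by Benjamini-Hochberg over all 22746 probe sets tested, was under 0.05. The same fit with the replicate letter as a block, on the 11 lettered arrays, is named the blocked fit. Errors after ± are limma standard errors.

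At 48 h into the extended night the plastid transcripts were lower than at the end of the night: 25 of 69 were called lower and 0 higher, and the median change was -0.82 log2 units. The falls included photosystem II core genes (psbB, psbC, psbD), rbcL, subunits of the NDH complex, the polymerase subunits rpoC1 and rpoC2 and ribosomal protein genes. Of the 25 calls, 9 held in all 19 alternative fits described below. Among the genes named here by symbol, only psbC and rpoC2 were of these 9. With the 48 h B array left out, the median change was -0.42. Over all probe sets tested the median change was 0.03, with 20.3% called lower and 40.8% called in either direction, against 36.2% of the plastid genes called lower. Up to 24 h few plastid genes were called. At 24 h 3 were lower and 0 higher, with 17.2% of all probe sets called lower and 32.6% called in either direction. At 4 h and 8 h the time point fit in limma called 0, where 16.3% and 27.7% of all probe sets were called in either direction. At an unadjusted p under 0.05 it found 1 plastid gene at 4 h, which was higher, and 4 at 8 h, of which 2 were higher and 2 lower.

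Blocking on the letter moved these counts. The blocked fit called 40 plastid genes lower and 0 higher at 48 h, where 24.3% of all probe sets were called lower and 49.4% in either direction, and 24 of the 25 genes named by the time point fit were among them. With 48 h B left out of the blocked fit 25 were called lower, 24 of them shared with the 40, and with 48 h C left out 49 were. For these left-out fits the share of all probe sets called is not given here. The blocked fit on all 11 lettered arrays called 10 lower at 24 h (21.5% of all probe sets lower, 42.4% in either direction). It called 3 at 8 h (36.6% in either direction) and again 0 at 4 h (26.2%). Over all 8 time points together, limma's moderated F-test called 14 plastid genes (35.5% of all probe sets), and 34 with the block (50.3%). Under both fits the plastid genes had a lower share of calls than the array as a whole at 4 h, 8 h and 24 h. Their spread within time points was also wider, with a median standard deviation of 0.47 log2 units against 0.17 for all probe sets. With the block it was 0.276 against 0.123. The part of this wider spread in the lower share of calls was not tested.

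**Figure D1:**
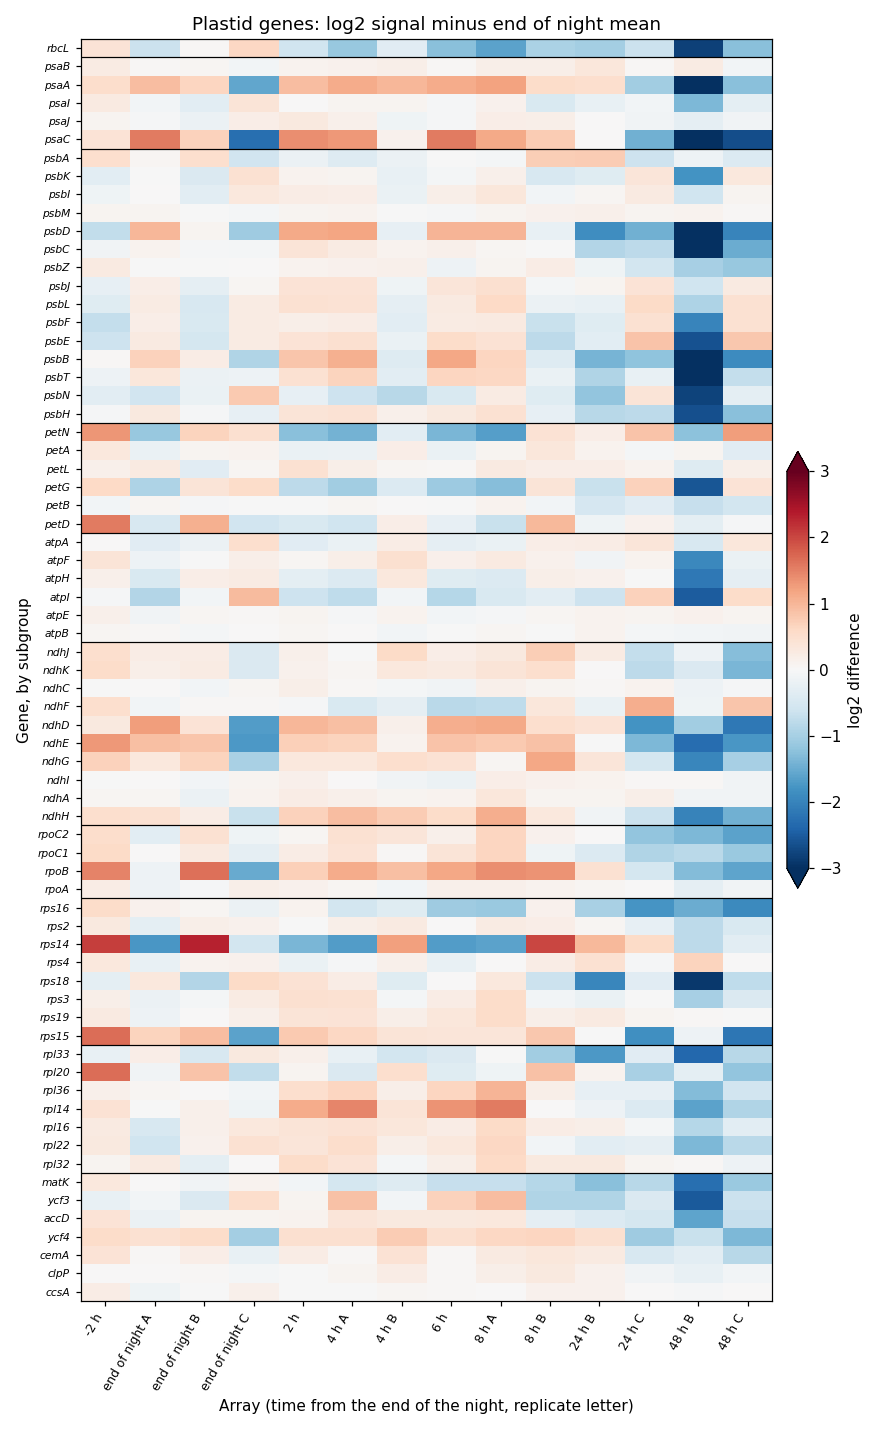
Log2 signal of 69 plastid genes on each of 14 arrays, minus the mean of the 3 end of night arrays. Rows are genes, ordered by subgroup and, within a subgroup, by position on the plastid genome. Columns are arrays in order of time, and the colour scale stops at 3 log2 units in each direction. The 48 h B array has the most blue cells, with 34 genes at least 1 log2 unit below the end of night mean, against 21 on 48 h C.

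The 48 h arrays differed from each other. Set against the end of night array of the same letter, 48 h B had a median difference of -1.22 over the 69 genes, with 61 below 0 and 40 lower by at least 1 log2 unit. On the same terms 48 h C had a median of -0.40, with 55 below 0 and 12 lower by at least 1. Over all probe sets 11.2% were lower by at least 1 in either letter, against 58% and 17.4% of the plastid genes in letters B and C. In both letters 50 genes were lower and 3 higher, and the other 16 moved in opposite directions. Of all probe sets, 37.6% were lower in both letters and 41% higher.

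Other measurements also set the 48 h B array apart. Its 25S ribosomal RNA control stood at 8.98 log2 units, against 11.05 to 13.78 on the other 13 arrays. The 5S ribosomal RNA control was within the range of the others (5.87, against 4.95 to 7.87). It was nonetheless the lowest of letter B, whose other arrays read 7.58 (end of night), 6.68 (4 h), 7.87 (8 h) and 7.5 (24 h). The median gene of the mitochondrial genome on 48 h B was within the range of the others (5.96, against 5.37 to 6.13). On every array that median lay below the median of all probe sets. The median plastid gene stood at 10.04 there, against 11.29 to 12.23 on the others, whereas the median of all probe sets was 6.62, against 6.64 to 6.77. The difference between 3′ and 5′ control probe sets did not leave the range seen on the other 13 for actin (2.43, against 1.87 to 2.74), ubiquitin (1.92, against 1.46 to 1.94) and GAPDH (0.85, against 0.16 to 1.16). Among the letter B arrays this difference was highest on 48 h B for actin (next 2.19 at 24 h) and ubiquitin (next 1.8 at the end of the night). For GAPDH it was higher on 8 h B (0.87). The part of these controls in the result was not tested. Without 48 h B the median change was -0.42. Then 30.4% of the plastid genes were lower by at least 1, against 11.4% of all probe sets. Without 48 h C the median was -1.0, and these shares were 49.3% and 11.7%. These differences are from the mean of the end of night arrays. Within letter C the shares were 17.4% and 11.2%, as given above.

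By class, the median difference in letter B was -1.35 for photosynthesis genes, -1.14 for gene expression genes and -1.22 for the others. In letter C it was -0.23, -0.59 and -0.61 in the same classes. In both letters together, 28 of 43 photosynthesis genes were lower, as were 15 of 19 gene expression genes and 7 of 7 others. The time point fit called 14 photosynthesis genes, 9 gene expression genes and 2 others at 48 h, and the blocked fit called 22, 13 and 5. Of all probe sets, 20.3% were called lower in the time point fit and 24.3% in the blocked fit. The same shares apply to the 48 h counts by subgroup and unit below. Whether the classes differed was not tested.

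**Figure D2:**
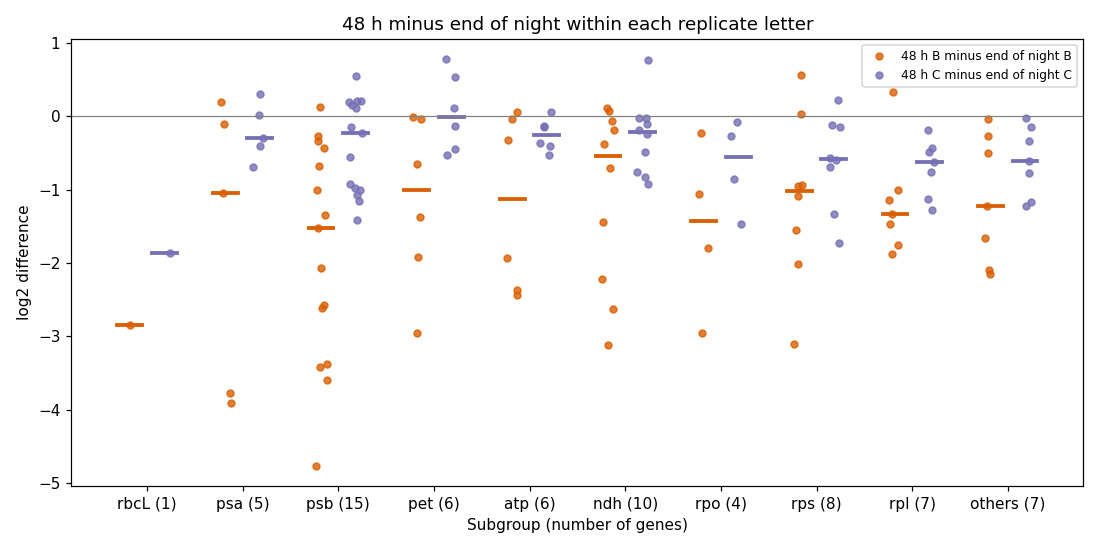
Difference in log2 signal between 48 h and the end of the night within letter B and within letter C, for each plastid gene by subgroup. Points are genes and bars are subgroup medians, with 1 array at each time in each letter. The letter B points reach -4.76 (psbD), whereas the lowest in letter C is rbcL at -1.86.

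Of the 25 genes called lower at 48 h, 9 were also called lower in every one of 19 alternative fits, including those without 48 h B or without 48 h C. These were psbC, psbH and psbZ of photosystem II, petB of the cytochrome b6f complex, ndhH of the NDH complex, rpoC2 of the polymerase, rps16 of the small ribosomal subunit, accD and matK. The call was lost without 48 h B for 14 of the 25, with estimates of -2.67 to -0.44, and without 48 h C for 4 (psaC, ndhE, ndhK and rpoC1), with estimates of -3.07 to -0.45. In the time point fit the estimates of psaC and ndhE were -2.67 and -1.75 without 48 h B, and -3.07 and -2.28 without 48 h C. With 48 h B left out of the blocked fit they were -0.82 and -0.34. Within letter C, whose end of night array already read lower than that of letter B, the changes were -0.4 (psaC) and -0.02 (ndhE). Without end of night A the call was lost for 10 (psaA, psaC, psbT, ndhE, ndhG, ndhK, rps3, rpl14, rpl33 and rpl36, with estimates of -2.09 to -0.81). Without end of night B it was lost for 11 (psaA, psaC, psbT, ndhE, ndhG, ndhK, rpoC1, rps2, rps3, rpl14 and rpl22, with estimates of -2.52 to -0.54), and without end of night C for 5 (psbT, rps3, rpl14, rpl22 and rpl33, with estimates of -2.22 to -0.59). Leaving out an array of 4 h, 8 h or 24 h left the estimates as they were, and 4 or 5 genes lost the call each time (from psaA, psaC, ndhE, ndhG, ndhK, rps3, rpl14 and rpl33).

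Photosystem II, which splits water, had 15 measured genes, of which 6 were called lower at 48 h and 8 in the blocked fit. The psbD, psbC and psbZ genes lie together and are transcribed from the same unit. psbD encodes the D2 reaction centre protein. Its signal was 6.52 (B) and 9.24 (C) at 48 h, against 12.2 (A), 11.29 (B) and 10.15 (C) at the end of the night, so both 48 h arrays lay below all 3, and letter C moved less than letter B. The estimate was -3.33 ± 0.84, or 10.1-fold lower (adjusted p = 0.00979), and -1.98, not called, without 48 h B. With 48 h B left out of the blocked fit it was -1.3. psbC, for the CP43 antenna protein, stood at 9.08 (B) and 11.05 (C) at 48 h, against 12.63 (A), 12.49 (B) and 12.46 (C) at the end of the night. The end of night arrays of psbC nearly coincided, and the change of -2.46 ± 0.43 was called (adjusted p = 0.00125). It was -1.48 without 48 h B and -3.45 without 48 h C, and called in both cases. psbZ, for a small subunit, was at 11.57 (B) and 11.44 (C) at 48 h, against 12.57 (A), 12.57 (B) and 12.59 (C). Here both letters fell by a like amount, 1.0 in B and 1.15 in C, and the estimate was -1.07 ± 0.13 (adjusted p = 0.000116).

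Another unit, psbB-psbT-psbH-petB-petD, had 4 of its 5 genes called lower. psbB encodes the CP47 antenna protein. It was at 7.47 (B) and 8.95 (C) at 48 h, against 11.52 (A), 11.06 (B) and 9.92 (C) at the end of the night. Its change of -2.62 ± 0.61 (adjusted p = 0.00671) became -1.88, not called, without 48 h B. With 48 h B left out of the blocked fit it was -1.25. psbH, for a small phosphoprotein of photosystem II, was at 9.04 (B) and 10.44 (C), against 11.97 (A), 11.64 (B) and 11.45 (C). That is -1.95 ± 0.37 (adjusted p = 0.00191), and -1.25 without 48 h B and -2.65 without 48 h C, both called. psbT, for another small subunit, fell by 2.13, but the estimate was -0.72 (adjusted p = 0.259) without 48 h B and -3.55 without 48 h C. petB, for cytochrome b6, moved less and with little scatter: 12.77 (B) and 12.92 (C) at 48 h, against 13.53 (A), 13.42 (B) and 13.44 (C), a change of -0.62 ± 0.11 (adjusted p = 0.00119). At 24 h petB was already called, at 12.95 (B) and 13.12 (C), with a change of -0.42 ± 0.11 (adjusted p = 0.0128), which was -0.34 and not called without 24 h B. petD, for subunit IV of the same complex, was at 6.16 (B) and 6.42 (C), against 5.98 (A), 7.52 (B) and 5.88 (C), and the groups overlapped.

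psbA, for the D1 protein that is replaced continually in the light, was at 12.0 (B) and 11.74 (C) at 48 h, against 12.21 (A), 12.67 (B) and 11.59 (C), and its groups overlapped (-0.29 ± 0.42, adjusted p = 0.653). The unit psbE-psbF-psbL-psbJ, which holds cytochrome b559, went opposite ways in the letters. Its 4 genes were all lower in letter B at 48 h, by a median of -0.98, and all higher in letter C, by 0.21. At 48 h 0 of the 4 were called in either fit.

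Of 5 photosystem I genes 2 were called lower, and neither call held in all alternatives. The blocked fit called psaC and psaI lower at 48 h, and psaI changed by -1.04 in letter B and -0.69 in letter C. psaA, for one of the proteins that form the reaction centre heterodimer, was at 9.5 (B) and 11.52 (C) at 48 h, against 13.69 (A), 13.41 (B) and 11.21 (C) at the end of the night. The end of night C array lay below 48 h C, so the groups overlapped. The estimate was -2.26 ± 0.81 (adjusted p = 0.0493), and -1.94 with adjusted p = 0.0683 in the blocked fit. With 48 h B left out it was -1.25 (adjusted p = 0.332) in the time point fit and 0.14 (adjusted p = 0.67) in the blocked fit. psaC, for the iron-sulfur subunit that passes electrons to ferredoxin, was at 6.71 (B) and 7.12 (C), against 11.36 (A), 10.49 (B) and 7.52 (C). Its estimate was -2.87 ± 0.95 (adjusted p = 0.0368), and -2.67 with adjusted p = 0.134 without 48 h B. With 48 h B left out of the blocked fit it was -0.82 (adjusted p = 0.167). psaB, for the partner of PsaA, had 14.24 (B) and 13.92 (C), against 14.02 (A), 14.06 (B) and 13.9 (C), and was not called (0.09 ± 0.13, adjusted p = 0.65). It lies in the same unit as psaA. Its signal was near the highest of any probe set on an array (14.15 to 14.39), and whether this limits its change was not tested.

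The large subunit of Rubisco, the enzyme that fixes carbon dioxide, is encoded by rbcL. From the end of the night to 8 h its signal was 9.67, 9.18 and 8.72 in letter A, and in letter B it was 10.36, 9.98 and 9.38. At 24 h and 48 h it was 9.3 and 7.52 in letter B, and 9.67 and 9.07 in letter C, where the end of night array read 10.94. Every later lettered array was therefore below the end of night array of its letter. The 48 h change was -2.02 ± 0.49 (4.07-fold lower, adjusted p = 0.00838), and -1.25, not called, without 48 h B. With 48 h B left out of the blocked fit the 48 h change was -1.81. In the blocked fit on all 11 lettered arrays the change was -2.38 ± 0.23 at 48 h (adjusted p = 3.4e-05). It was -1.19 ± 0.23 at 24 h (adjusted p = 0.00277) and -0.89 ± 0.23 at 8 h (adjusted p = 0.0143), whereas the time point fit called neither 8 h nor 24 h.

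**Figure D3:**
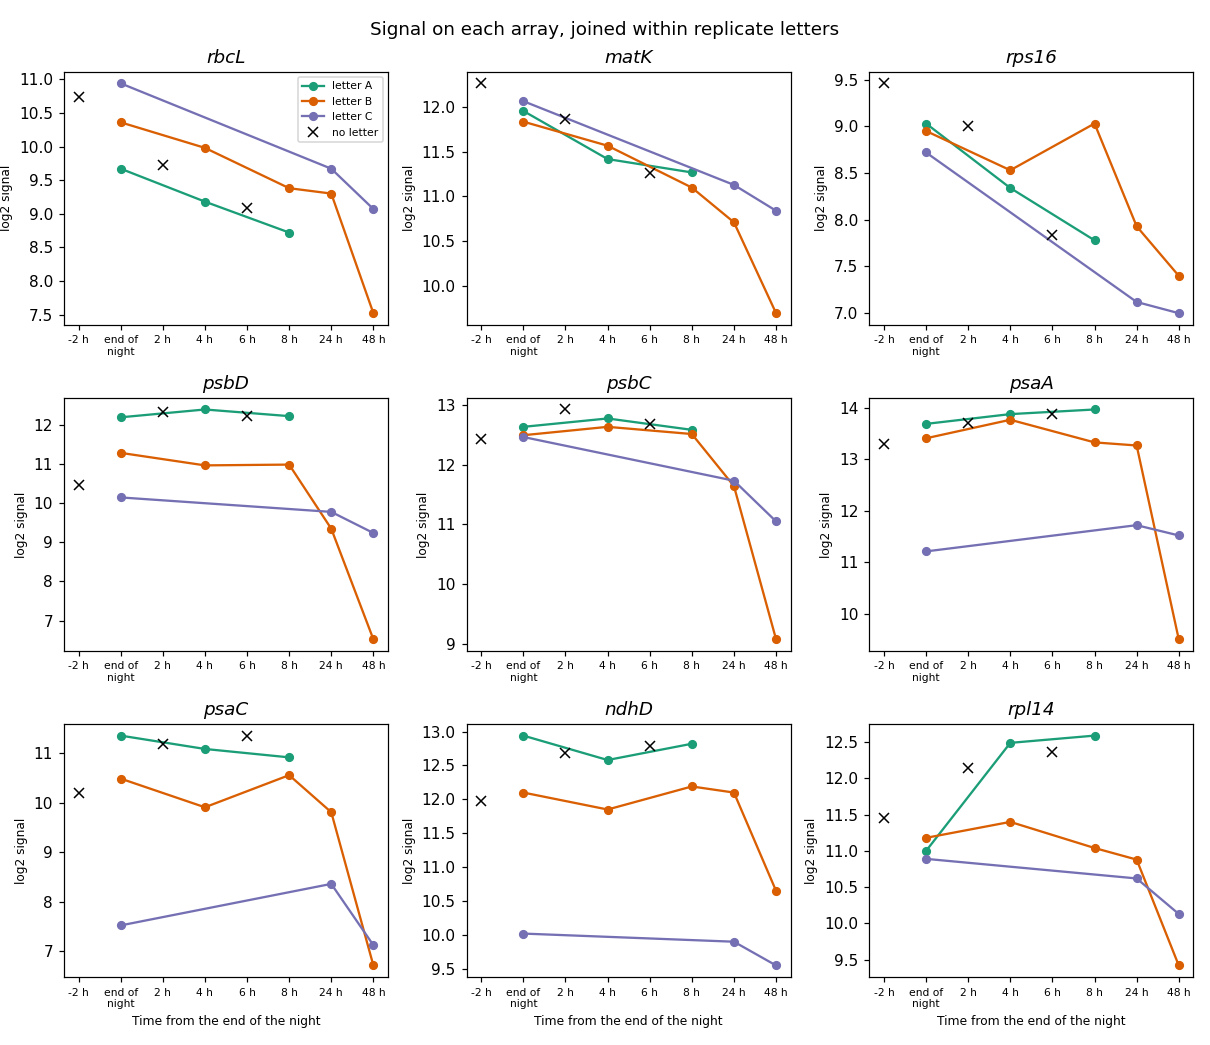
Log2 signal of 9 plastid genes on each array. Points of a letter are joined, arrays with no letter are crosses, and time points are evenly spaced and not to scale. rbcL and matK are below the end of the night at every later time in each letter, whereas psaA and psaC start lower in letter C than in letter B (psaA 11.21 in C and 13.41 in B).

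The NDH complex had 10 measured genes, of which 4 were called lower at 48 h and 6 in the blocked fit. ndhH, for a subunit homologous to one of bacterial complex I, was at 6.76 (B) and 7.33 (C) at 48 h, against 9.23 (A), 8.98 (B) and 8.09 (C), and its change of -1.72 ± 0.36 (adjusted p = 0.00337) kept its call in every alternative. ndhK was at 9.61 (B) and 8.69 (C), against 10.24 (A), 10.31 (B) and 9.61 (C), so the lowest end of night array equalled the higher 48 h array. Its change was -0.90 ± 0.32 (adjusted p = 0.0489), and -0.45 with adjusted p = 0.368 without 48 h C. ndhD was 10.65 (B) and 9.55 (C), against 12.94 (A), 12.1 (B) and 10.02 (C), and only the blocked fit called it (-1.02 ± 0.22, adjusted p = 0.00487). That blocked estimate was -0.46 without 48 h B. In the unit psaC-ndhD-ndhE-ndhG-ndhI-ndhA-ndhH, letter B changed by a median of -2.22 and letter C by -0.24. Within that unit ndhI and ndhA had changes of -0.03 ± 0.10 and -0.11 ± 0.12. ndhF had low signal, between 5.31 and 7.22 on the 14 arrays.

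Among 6 ATP synthase genes 0 were called at 48 h in the time point fit, and 3 in the blocked fit. These 3, atpF, atpH and atpI, encode subunits of the membrane part and lie in a unit with rps2 and atpA. atpH, for the subunit that forms the rotating ring, was at 10.04 (B) and 11.93 (C) at 48 h, against 11.73 (A), 12.4 (B) and 12.45 (C), and 48 h C lay within the end of night range. Its blocked change was -1.48 ± 0.38 (adjusted p = 0.0107), and -0.47 without 48 h B, still called, whereas atpF (-0.37) and atpI (-0.46) were then not called. atpB and atpE, for the beta and epsilon subunits of the catalytic head, changed by -0.10 ± 0.10 and 0.11 ± 0.10. atpA, for the alpha subunit, changed by -0.07 ± 0.30.

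Of the polymerase genes 2 were called lower at 48 h. rpoC2 was at 8.19 (B) and 7.93 (C) at 48 h, against 9.21 (A), 9.98 (B) and 9.39 (C), and rpoC1 at 9.85 (B) and 9.53 (C), against 10.66 (A), 10.91 (B) and 10.38 (C). In both genes each 48 h array was below all end of night arrays. rpoC2 fell by 1.47 ± 0.34 (adjusted p = 0.00636) and rpoC1 by 0.96 ± 0.26 (adjusted p = 0.0158), and rpoC1 lost its call without 48 h C (-0.80, adjusted p = 0.0984). rpoB, of the same unit, was at 5.5 (B) and 5.22 (C), against 6.65 (A), 8.45 (B) and 5.29 (C), and with this scatter its -1.44 ± 0.71 was not called. rpoA, at the far end of the large ribosomal unit, was at 12.47 (B) and 12.63 (C), against 12.58 (A), 12.7 (B) and 12.91 (C), and changed by -0.17 ± 0.12 (adjusted p = 0.304).

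Of 15 ribosomal protein genes 7 were called lower at 48 h (rps2, rps3, rps16, rpl14, rpl22, rpl33 and rpl36) and 11 in the blocked fit. rps16 was at 7.4 (B) and 7.0 (C) at 48 h, against 9.03 (A), 8.95 (B) and 8.72 (C), a change of -1.70 ± 0.35 (adjusted p = 0.00323). It was among the few genes called at 24 h too, with 7.93 (B) and 7.12 (C), a change of -1.38 ± 0.35 (adjusted p = 0.0132). Without 24 h C that estimate was -0.97 and not called. rpl36 was at 10.93 (B) and 11.66 (C) at 48 h, against 12.3 (A), 12.26 (B) and 12.15 (C), or -0.94 ± 0.27 (adjusted p = 0.02), and -0.58 with adjusted p = 0.169 without 48 h B. rps18 was called in the blocked fit at 24 h (-1.11 ± 0.19, adjusted p = 0.00176) and at 48 h (-1.77 ± 0.19, adjusted p = 7.82e-05), and not in the time point fit. rps19, next to rpl22, changed by 0.02 ± 0.15.

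Among the remaining genes, matK encodes the maturase that helps splice a group of plastid introns. Its signal was 12.27 on the -2 h array, and 11.96 (A), 11.84 (B) and 12.07 (C) at the end of the night. It was 11.87 at 2 h, 11.42 (A) and 11.57 (B) at 4 h, 11.26 at 6 h, and 11.27 (A) and 11.1 (B) at 8 h. At 24 h it was 10.71 (B) and 11.13 (C), and at 48 h 9.69 (B) and 10.84 (C). No array after 2 h reached the lowest end of night array, and the changes were -1.03 ± 0.28 at 24 h (adjusted p = 0.019) and -1.69 ± 0.28 at 48 h (adjusted p = 0.000952). The 24 h estimate was -0.82 without 24 h B and -0.98 without end of night C, and was called in neither case. The 48 h estimate was -1.11 without 48 h B and -2.27 without 48 h C, both called.

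accD, for a subunit of the acetyl-CoA carboxylase that starts fatty acid synthesis, was at 8.73 (B) and 9.63 (C) at 48 h, against 10.14 (A), 10.39 (B) and 10.4 (C), a change of -1.13 ± 0.25 (adjusted p = 0.00506). It was -0.68 without 48 h B and -1.58 without 48 h C, and called in both cases. clpP, for the proteolytic subunit of the Clp protease, was at 12.31 (B) and 12.46 (C), against 12.55 (A), 12.58 (B) and 12.48 (C), and changed by -0.15 ± 0.11 (adjusted p = 0.342). The blocked fit also called ycf3 and ycf4, which help assemble photosystem I, and cemA lower at 48 h.

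From 24 h to 48 h, 60 of 69 genes were lower at 48 h than at 24 h in both letters, with medians of -0.91 in B and -0.26 in C. Of these changes 1 was called, that of psbZ (-0.73), where 5.03% of all probe sets were called in either direction and 2.55% lower. Without 24 h B it was -0.52 and not called. The blocked fit called 8 lower (6.59% of all probe sets lower): psbC, psbN, psbZ, rbcL, ndhD, ndhH, ndhK and cemA. Between 24 h and 8 h 0 were called by limma (3.24% of all probe sets), with 9 lower at an unadjusted p under 0.05, and the blocked fit called rps18 and ndhK lower (6.7%).

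Before 24 h the plastid genes had median changes of 0.13 at 4 h and 0.19 at 8 h. At 4 h 37 of 69 genes were higher in both letters and 17 lower, where 34.3% of all probe sets were higher and 39.1% lower. At 8 h 29 of 69 were higher in both letters and 7 lower, where 39.8% of all probe sets were higher and 36.8% lower. Over the 10 arrays from -2 h to 8 h a slope per hour was fitted. By that slope 4 plastid genes were called, where 36.2% of all probe sets were. Those lower were rbcL (-0.17 log2 units per hour, adjusted p = 0.00267), matK (-0.11) and rps16 (-0.11), and rpl36 was higher by 0.07. In the blocked fit, where 25.4% of all probe sets were called, rps16 (adjusted p = 0.28) and rpl36 (adjusted p = 0.0962) lost the call, while psbL and rpl32 were called higher. At -2 h, 2 h and 6 h, with 1 array each, 0 plastid genes were called (0.00879%, 0.435% and 18% of all probe sets). The numbers at an unadjusted p under 0.05 were 1, 0 and 2.

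The large ribosomal unit that runs from rpl23 to rpoA had 7 measured genes, all higher than the end of the night in letter A at both 4 h and 8 h. rpl14 was the clearest, at 12.49 (4 h) and 12.59 (8 h) in letter A, against 11.0 at the end of the night in A. In letter B rpl14 was at 11.4 (4 h) and 11.04 (8 h), against 11.18. The arrays with no letter read 12.14 at 2 h and 12.37 at 6 h, on the side of letter A. At 8 h the median of the 7 genes was 0.96 above the end of the night in letter A and 0.08 above it in letter B. The same held for rpoB-rpoC1-rpoC2, with medians of 0.96 in A and -0.32 in B at 8 h. Whether the letters differed in their change over time was not tested, and there was 1 array at each time in each letter.

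Arrays of the same time point but different letters were further apart in plastid transcripts than in the median probe set. The median standard deviation within time points was 0.47 log2 units for the 69 genes and 0.17 for all probe sets, and 0.276 and 0.123 after blocking on the letter. For the 11 genes of the mitochondrial genome with a probe set it was 0.178. These genes were dim, with a median signal of 5.37 to 6.13 per array, below that of all probe sets (6.62 to 6.77). Whether the low signal bears on their spread was not tested. At the end of the night 16 plastid genes were at least 2-fold apart between arrays B and C, against 1.06% of all probe sets. In the blocked fit the letter itself was called for 24 of 69 plastid genes, where 15.6% of all probe sets were called. Between letters C and B 22 were called, 14 higher and 8 lower in C (15.1% of all probe sets).

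Some of these differences were shared by neighbouring genes and others were not. psbE, psbF, psbL and psbJ were all higher in letter C than in B, by 1.75 ± 0.40 (psbE), 1.29 ± 0.28 (psbF), 0.96 ± 0.12 (psbL) and 0.52 ± 0.11 (psbJ). psbK and psbI, which also share a unit, were higher by 1.22 ± 0.22 and 0.52 ± 0.10. rps18 and rpl33, neighbours in another unit, were higher by 1.66 ± 0.16 and 1.19 ± 0.17. Lower in C were rps15 (-2.12 ± 0.15, adjusted p = 0.000672), ndhD (-1.83 ± 0.19, adjusted p = 0.00187), and ndhJ and ndhK, which lie together, by -0.97 ± 0.12 and -0.81 ± 0.08. Other neighbours had opposite signs: rpl20, next to rps18, was lower in C (-1.21 ± 0.13), and in 1 unit psaI was higher (0.64 ± 0.17) and ycf4 lower (-1.29 ± 0.16). rbcL, psbN and ycf3 were called with neither measured neighbour called, and ndhD was the one gene called in its unit of 7. Whether neighbours shared a sign more often than other genes was not tested. The genes of ndhD's unit were lower in letter C than in letter B at the end of the night by a median of -1.64 and at 24 h by -0.91, and higher by 0.41 at 48 h.

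**Figure D4:**
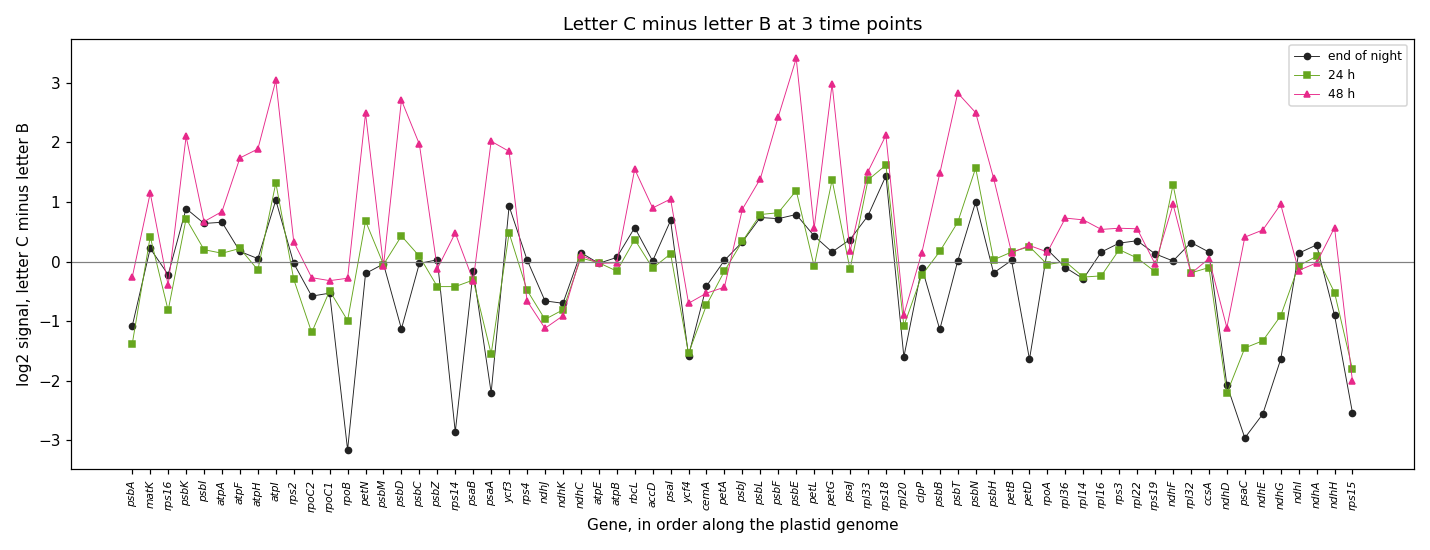
Log2 signal in letter C minus letter B at the end of the night, 24 h and 48 h for 69 plastid genes, in their order along the plastid genome. Each point is a difference between 2 arrays. The runs psbJ to psbE and rpl33 to rps18 are above 0 at all 3 times, and rps15, ndhD, ycf4 and rpl20 are below 0.

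rps14, for a protein of the small ribosomal subunit, had a standard deviation within time points of 1.81 log2 units, the largest of the 69 genes, and lay between 5.31 and 9.37 on the 14 arrays. It was at 5.31 (end of night), 5.39 (4 h) and 5.46 (8 h) in letter A, and at 9.37 (end of night), 8.29 (4 h), 9.08 (8 h), 8.05 (24 h) and 6.27 (48 h) in letter B. Letter B was 3.20 ± 0.49 higher than letter A (adjusted p = 0.0333), in a contrast with 1.9% of all probe sets called. In letter C it was 6.52 at the end of the night, 7.63 at 24 h and 6.75 at 48 h. Without a letter it was 9.13 at -2 h, 5.7 at 2 h and 5.38 at 6 h. rps14 was called at no time point in either fit.

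The median change at 48 h also differed between bands of probe set brightness, and the letters were not alike in this. The 6 genes with a mean over 14 arrays of at least 13 changed by -0.62 to 0.11 at 48 h with a median of 0.02, and 1 of them was called. The 37 genes between 11 and 13 had a median of -0.71 with 11 called, and the 16 between 9 and 11 a median of -1.56 with 11 called. The 10 below 9 had a median of -1.02 with 2 called. From the dimmest to the brightest band, the medians within letter B were -2.06, -2.33, -0.95 and 0.09. Within letter C they were -0.1, -0.88, -0.34 and -0.06. The highest value of any probe set on an array lay between 14.15 and 14.39. psaB, atpB, atpE and psbM are among the 6 brightest genes, and whether the upper end of the scale bears on their values was not tested.

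**Figure D5:**
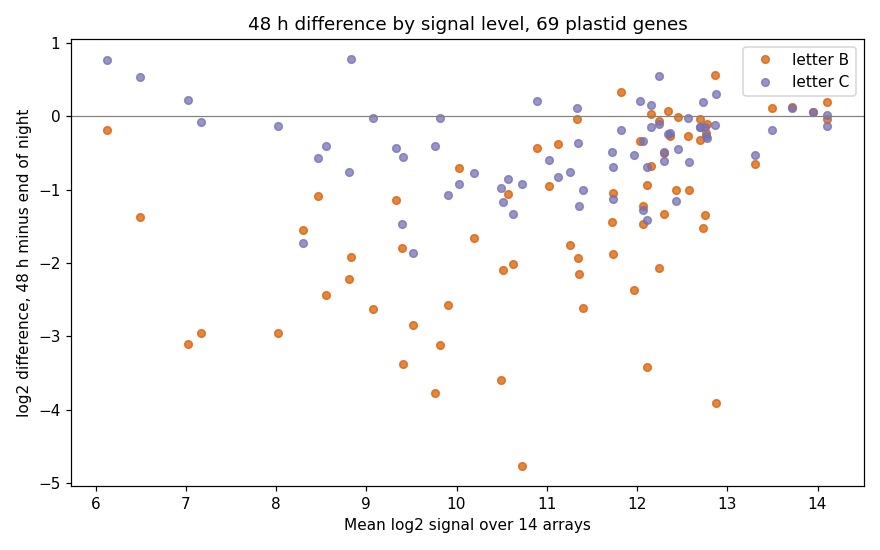
Difference between 48 h and the end of the night, within letter B and within letter C, against the mean log2 signal of the gene over 14 arrays, for 69 plastid genes. The 6 genes at 13 or above lie between -0.65 and 0.19, whereas the lowest point in letter B is psbD at -4.76.

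Some nuclear genes that build or serve the same complexes were called lower at 4 h, and more at later times. Of 88 genes listed for plastid transcription, RNA processing, photosystems and other complexes, ribosomes and Rubisco, 16 had a usable probe set, and 0 of 6 sigma factors and 0 of 12 polymerase-associated proteins did. Of the 16, 3 were called lower at 4 h, 6 at 8 h, 11 at 24 h and 13 at 48 h, and 0 were called higher at any of these times. Of all probe sets, 8.78% were called lower at 4 h, 15% at 8 h, 17.2% at 24 h and 20.3% at 48 h. NDHN, a nuclear NDH subunit, stood at 6.9 (B) and 7.23 (C) at 24 h, against 10.41 (A), 10.7 (B) and 10.83 (C) at the end of the night, and fell by 3.58 ± 0.17 (adjusted p = 9.12e-07). At 48 h the changes were -4.36 ± 0.17 for NDHN and -3.90 ± 0.15 for NDHL, another subunit. The plastid ribosomal protein gene PRPS10 changed by -1.96 ± 0.16 and ATPC1, for the gamma subunit of the ATP synthase, by -1.59 ± 0.10. CRP1, known in maize to act on petB and petD RNAs, fell by 1.58 ± 0.18. RPOTmp, the phage-type polymerase found in both organelles, was not called (-0.04 ± 0.17). At 48 h NDHN was at 6.4 (B) and 6.17 (C). Of the genes of the mitochondrial genome at 48 h, 6 of 11 were called higher and 1 lower, with a median change of 0.52. Of all probe sets, 20.5% were called higher and 20.3% lower. The mitochondrial genes were dim, with a median signal of 5.96 (B) and 6.1 (C) at 48 h.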

How the data were processed

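Transcript levels were measured on 14 ATH1 arrays at 8 time points. The deposited values are log2 intensities made by the authors with RMA, per the submitters' processing notes; which software ran it is not given in the sources used here. The labels do not state how the first strand was primed. The number of arrays limits the precision. Affymetrix controls (64 of 22810 probe sets) were left out, and 22746 were tested with no filter in limma 3.58.1 (R 4.3.3; lmFit, eBayes, two-sided), in 1 fit of 14 arrays with time point as a factor. Each comparison was adjusted by Benjamini-Hochberg on its own. Tables used pandas 2.3.3 and numpy 2.4.6 under Python 3.11.15, and figures used matplotlib 3.10.9.

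Across probe sets, residuals about time point means had correlations of 0.17 to 0.58 in 16 pairs of arrays of the same letter (all over 0.1). In 32 pairs of different letters they were -0.58 to 0.365. At times with 2 arrays the residuals mirror each other, so part of this contrast was fixed in advance. On that ground letters were treated as pairing samples in the blocked fit and in the differences within letters, but not in the time point fit. Genes, lists, subgroups and polycistronic units were chosen with earlier results of these data known. Named genes were the largest called changes per comparison and a set of core genes; others were chosen after their values were seen. Alternatives changed the normalization, filter, block, eBayes options, threshold and arrays. The planned averaging of several probe sets per gene was not run, as each gene had 1. On simulated data the 48 h comparison recovered 67% of 2-fold and 97% of 4-fold changes among 22746 probe sets. The changed probe sets were drawn from the whole array, and the simulation held no letter differences. The plastid genes had a wider spread (median standard deviation within time points 0.47, against 0.17 for all probe sets). The recovery rates therefore do not apply to them.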

Additional observations from a re-analysis of the deposited data

How the results depend on the processing

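Median centring, a second quantile normalization and eBayes with trend and robust settings left every count of plastid genes called within 1.5 times, and other choices moved some counts further. Leaving out 1 lettered array at a time gave 0 to 1 called genes at 4 h, 0 to 4 at 8 h, 2 to 5 at 24 h, 13 to 34 at 48 h, 0 to 11 for 48 h against 24 h, 0 to 1 for 24 h against 8 h, 2 to 9 for the slope and 8 to 16 for any difference among the 8 time points. At 48 h the count was lowest without 48 h B (13) and highest without 48 h C (34). With the replicate block it was 3 at 8 h, 10 at 24 h, 40 at 48 h, 8 for 48 h against 24 h, 2 for 24 h against 8 h and 34 for any difference. The block with 48 h array B or C left out was added after the data had been seen: for 48 h against the end of the night it gave 25 without B and 50 without C, and for 48 h against 24 h it gave 4 without B and 34 without C. In that fit without B, psaA had a change of 0.14 at 48 h, opposite in sign to the -2.26 of the time point fit. Fitting only the time points compared gave 1 at 4 h, 2 at 8 h, 6 at 24 h and 0 for 48 h against 24 h. Leaving out both 48 h arrays gave 2 at 8 h, 5 at 24 h, 1 for 24 h against 8 h and 2 for any difference. Without the dimmest 33.3% of probe sets 1 gene was called at 8 h, and asking for at least 2-fold left 0 for 48 h against 24 h. Changes of the single genes named by rule, and of class medians, were compared under the alternatives. Of these, 412 kept their direction and side of the threshold or stayed within the spread, 36 lost the call and that of psaA reversed. Leaving out a 4 h, 8 h or 24 h array cannot move a 48 h estimate, so part of the 412 was fixed in advance. Over all 69 genes at 48 h, 13 that were not called turned sign without 48 h B and 5 without 48 h C. For fits with an array left out, the share of all probe sets called is not given here, so those counts have no background beside them. The cause of these shifts was not tested. With 2 or 3 arrays at a time point, small differences in genes whose letters differ widely were not detectable.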

Other observations

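Further plastid units, some with genes already named above, were read in the same way. In the unit psaI-ycf4-cemA-petA, which holds a photosystem I subunit, an assembly factor, an envelope protein and cytochrome f, all 4 genes were lower at 48 h in both letters, by a median of -0.77 in B and -0.53 in C. petA, for cytochrome f, changed by only -0.01 in letter B and by -0.45 in letter C. It was at 12.52 (B) and 12.09 (C) at 48 h, against 12.24 (A), 12.53 (B) and 12.55 (C) at the end of the night, and was not called. In the unit petL-petG-psaJ-rpl33-rps18 the median was -1.87 in B and -0.30 in C. petG, a small cytochrome b6f subunit, was at 5.87 (B) and 8.85 (C) at 48 h, against 7.5 (A), 8.81 (B) and 8.98 (C), with 48 h C inside the end of night range. The blocked fit called petG lower and the time point fit did not.

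petN, for another small b6f subunit, was highest on the -2 h array (10.39). Its 48 h arrays read 7.82 (B) and 10.31 (C), against 7.91 (A), 9.73 (B) and 9.53 (C). In letter A it was 7.65 at 4 h and 7.4 at 8 h. ycf3 was at 11.63 (4 h) and 11.66 (8 h) in letter A, against 10.65 at the end of the night. In letter B it was 10.65 (4 h) and 9.85 (8 h), against 10.32. rps4, which has a promoter of its own, was at 13.43 (B) and 12.77 (C) at 48 h, against 12.53 (A), 12.87 (B) and 12.89 (C), and its change of 0.33 ± 0.22 was not called.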
